A study of Mus musculus with 2 samples.

Results

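Mitochondrial carriers are the proteins of the Slc25a family and the uncoupling proteins Ucp1, Ucp2 and Ucp3, and their transcripts were examined here in mouse calf muscle. A gene was taken when its symbol began with Slc25a followed by a digit, or was Ucp1, Ucp2 or Ucp3, and when it had at least 1 protein-coding transcript. This gave 50 genes, 47 of the Slc25a family and 3 uncoupling proteins, out of 55536 genes in the tables and 22015 nuclear protein-coding genes. The pseudogene Slc25a5-ps was left out. Total RNA was sequenced from the gastrocnemius of female B6CASTF1/J mice aged 8 to 10 months, an F1 cross of B6 with CAST. There were 2 libraries, replicate 1 from animal 1 and replicate 2 from animal 3, in 1 group for which the labels name no treatment or introduced genetic change. Both animals carry one shared donor identifier in the labels, while their tissue samples are listed separately. The question is therefore descriptive, namely which carriers the muscle transcribes, how abundantly, and how much this varies from animal to animal.

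Mitochondrial carriers form one protein family of the inner mitochondrial membrane, built on a shared fold of repeated membrane-spanning segments. They exchange nucleotides, phosphate, di- and tricarboxylates, amino acids, acylcarnitines, cofactors and iron between the cytosol and the mitochondrial matrix. In muscle the ADP/ATP and phosphate carriers supply ATP synthase and export its product, and the aspartate-glutamate and oxoglutarate carriers form the malate-aspartate shuttle, which moves reducing equivalents inward. Ucp1 dissipates the proton gradient as heat in brown fat. Ucp3 is a relative found mainly in skeletal muscle and brown fat, and its transcript is known to respond to fatty acids and fasting.

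The libraries held 42714567 and 43421652 expected counts, meaning estimated reads per gene. Levels are given as TPM, which divides counts by transcript length and scales each library to the same total. The share of TPM in nuclear protein-coding genes was 48.2% for replicate 1 and 43.3% for replicate 2, so TPM of such genes was on the whole lower in replicate 2. The tissue label was checked against marker genes: the 7 fast-fibre genes summed to 71575 and 63642 TPM, and the 5 hepatocyte genes to 0.01 and 0.22 TPM. The 5 testis germ cell genes, at 0.01 and 0 TPM, cannot check it, since the animals are female. Over all genes compared, the common biological coefficient of variation was 0.124. As there is nothing to compare the group with, no p-value is given. Errors are SDs of both animals' values (n = 2), and they measure only the spread between these samples. In bulk muscle, fewer cells of a type and less RNA per cell cannot be told apart.

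The sequences that carry the results come from the GENCODE M21 transcripts, on GRCm38, and are shown 5′ to 3′ in the orientation of the transcript. Slc25a4 and Slc25a5, the related ADP/ATP carriers whose levels are compared, have coding sequences of 897 bases each that were 77.4% identical over 894 aligned columns. The longest run of bases shared by their main transcripts was 20. Their first 90 coding bases differed at 24 positions, marked in capitals. The Slc25a4 stretch lies at chr8:46210833-46210922 on the minus strand, in coding exon 1, and the Slc25a5 stretch at chrX:36795731-36795820 on the plus strand, also in coding exon 1.
Slc25a4: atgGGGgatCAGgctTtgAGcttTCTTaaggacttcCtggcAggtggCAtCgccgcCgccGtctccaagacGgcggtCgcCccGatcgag
Slc25a5: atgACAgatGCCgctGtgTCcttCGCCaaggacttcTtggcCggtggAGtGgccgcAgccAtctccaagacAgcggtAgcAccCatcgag

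The phosphate carrier Slc25a3 has a pair of alternative coding exons, shown because most of the gene's TPM was assigned to the first of them. In transcript Slc25a3-206, exon 3 is the 125 bases at chr10:91122207-91122331, minus strand. In transcript Slc25a3-201, exon 3 is the 122 bases at chr10:91121922-91122043, minus strand. The exons were 61.6% identical over 125 aligned columns, and capitals mark bases that differ or are unmatched.
Slc25a3-206 exon: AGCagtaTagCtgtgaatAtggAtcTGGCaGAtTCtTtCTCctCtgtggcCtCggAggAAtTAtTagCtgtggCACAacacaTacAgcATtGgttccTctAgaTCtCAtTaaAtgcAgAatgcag
Slc25a3-201 exon: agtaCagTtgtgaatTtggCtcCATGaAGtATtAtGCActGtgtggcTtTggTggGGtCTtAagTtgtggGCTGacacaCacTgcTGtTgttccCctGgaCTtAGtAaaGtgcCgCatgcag

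Among carriers with a mean of at least 50 counts, Ucp3 and Slc25a25 differed most between the animals, so the 250 bases before their RefSeq starts are shown (GRCm38.p6). Every promoter was searched on both strands for AGGTCA, the half-site of nuclear receptors, and for TGACGTCA, the cAMP response element, which reads the same on both strands; capitals mark the matches. The Ucp3 window is chr7:100472741-100472990, plus strand, directly before exon 1 of Ucp3-201. The Slc25a25 windows are chr2:32451471-32451720, before the start of Slc25a25-205, and chr2:32424067-32424316, before the start of Slc25a25-203, both on the minus strand. Another RefSeq start of Slc25a25 has its window at chr2:32431152-32431401, which held no match and is not printed, since neither main transcript begins there.
Ucp3: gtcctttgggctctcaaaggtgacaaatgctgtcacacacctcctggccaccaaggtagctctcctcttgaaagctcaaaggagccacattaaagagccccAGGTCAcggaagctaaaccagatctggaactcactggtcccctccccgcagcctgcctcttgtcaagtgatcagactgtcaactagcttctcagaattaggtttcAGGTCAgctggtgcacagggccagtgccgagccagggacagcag
Before Slc25a25-205: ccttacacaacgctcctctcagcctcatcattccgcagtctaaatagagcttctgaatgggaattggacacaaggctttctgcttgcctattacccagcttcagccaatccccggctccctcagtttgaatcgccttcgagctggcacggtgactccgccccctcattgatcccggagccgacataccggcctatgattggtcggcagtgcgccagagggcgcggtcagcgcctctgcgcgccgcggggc
Before Slc25a25-203: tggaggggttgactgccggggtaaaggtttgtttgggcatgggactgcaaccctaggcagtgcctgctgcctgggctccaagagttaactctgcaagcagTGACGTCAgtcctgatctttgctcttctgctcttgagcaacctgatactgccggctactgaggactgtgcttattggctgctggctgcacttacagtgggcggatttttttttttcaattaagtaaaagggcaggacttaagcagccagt

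AGGTCA occurred in 14.0% of the 32851 promoter windows in the RefSeq table, and in 6 of the 49 windows that 39 of the carriers had there, including Ucp3 and Ucp1. TGACGTCA occurred in 1.55% of all windows and in 2 of the 49, those of Slc25a25 and Slc25a36. CACGTG, the E-box that clock factors bind, was in 6.02% of all windows and 16.3% of the carriers' windows. TATAAA, the TATA box, was in 12.4% and 4.08%. A match is a description of letters in a window and not a site shown to be used.

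The carriers ranged from no counts in either animal to 1318 TPM in replicate 1 and 1207 TPM in replicate 2, and a few of them made up most of the family's RNA. They summed to 2610 TPM in replicate 1 and 2333 TPM in replicate 2 (2472 ± 196, n = 2), which was 0.541% and 0.539% of the TPM of nuclear protein-coding genes. The 5 highest by mean TPM, Slc25a4, Slc25a3, Slc25a12, Slc25a11 and Ucp3, held 86.9% and 87.6% of that sum. In replicate 2, Slc25a51 (41.9 TPM) stood above Ucp3 (36.6 TPM), but by the second quantification it stood below, at 28.0 against 30.8 TPM. In that animal the second quantification also put Slc25a11 (159 TPM) just above Slc25a12 (156 TPM). At 1 TPM or more in both libraries, 34 of the 50 (68%) were detected, against 43.9% of nuclear protein-coding genes. A further 2 reached 1 TPM in replicate 1 only, 14 were below it in both, and 4 of those had no count in either library. The median carrier stood at 4.64 and 4.35 TPM. Among the 34 detected, 20 had values that overlapped those of the next in rank, so the order in the middle of the list is not resolved by these animals.

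**Figure D1:**
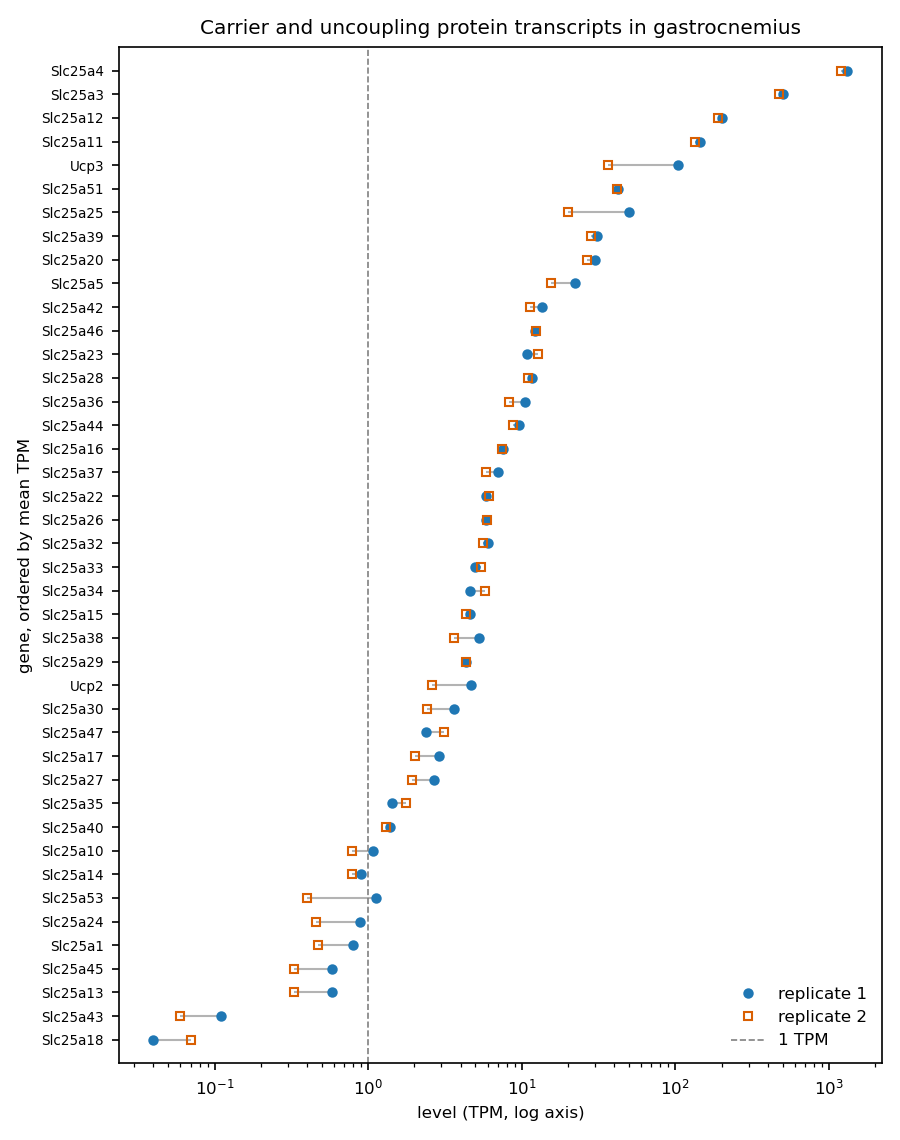
Level of 42 carriers and uncoupling proteins in TPM on a log axis, ordered by mean, with a filled circle for replicate 1, an open square for replicate 2 and a grey line between them; not every carrier is drawn, and those with no count in at least 1 library cannot be placed on this axis. The top 4 genes do not overlap their neighbours, while Ucp3 and Slc25a25 have the widest gaps between animals among genes above 10 TPM.

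The ADP/ATP carriers formed the largest class by level, at 51.4% and 52.4% of the family's TPM, and nearly all of it was a single gene. Slc25a4, the ADP/ATP carrier of heart and skeletal muscle (chr8:46206797-46211284, minus strand), measured 1318 TPM in replicate 1 and 1207 TPM in replicate 2 (1263 ± 79.0, n = 2), from 62840 and 67364 counts. It ranked 32 among nuclear protein-coding genes in both animals. Slc25a5, the more widely expressed ADP/ATP carrier (chrX:36795651-36798807, plus strand), measured 22.1 and 15.5 TPM (18.8 ± 4.67, n = 2). Slc25a4 was thus 59.7 times Slc25a5 in replicate 1 and 77.9 times in replicate 2, and the second quantification gave 62.6 and 82.1. Slc25a31, the ADP/ATP carrier of testis, had no count in either library, which at 3 counts allows up to 0.0460 TPM in replicate 2. Limits of this kind cover counting error only, because reads were counted without molecular identifiers.

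Phosphate and ATP-Mg carriers took 21.5% and 21.8% of the family's TPM. Slc25a3, which imports phosphate for ATP synthesis, measured 500.1 and 475.6 TPM (488 ± 17.3, n = 2). The ATP-Mg/phosphate carriers exchange adenine nucleotides for phosphate under calcium control, and 2 of them were above 10 TPM. Slc25a25 measured 49.9 TPM in replicate 1 and 20.1 TPM in replicate 2 (35 ± 21.1, n = 2). Slc25a23 measured 10.9 and 12.8 TPM and was the lower of the pair in both animals, at a ratio to Slc25a25 of 0.218 and 0.640. By count the ratio was 0.134 and 0.378. Its level above 10 TPM depends on Slc25a23-206, a transcript of 598 bases given 6.16 and 8.31 TPM on 86 and 133 counts. Slc25a24 was at 0.88 and 0.46 TPM, so that Slc25a25 was 56.7 and 43.6 times higher, and 46.6 and 32.1 times by the second quantification. Slc25a41 had 0 and 2 counts.

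Carriers of the malate-aspartate shuttle were represented by 1 high member of each related pair. Slc25a12, a calcium-regulated aspartate-glutamate carrier, measured 202 and 190 TPM (196 ± 8.8, n = 2), and Slc25a13, its relative that is prominent in liver, 0.58 and 0.33 TPM. Their ratio was 349 in replicate 1 and 575 in replicate 2, resting on 22 and 18 counts of Slc25a13. It is a ratio of gene totals, which include transcripts not annotated as protein-coding. The only protein-coding transcript of Slc25a12 measured 29.5 and 29.3 TPM, and a retained-intron transcript took 65.9% and 33.6% of Slc25a13. Slc25a11, the oxoglutarate-malate carrier, measured 144 and 135 TPM (139 ± 6.36, n = 2), against 1.08 and 0.79 TPM for Slc25a10, the dicarboxylate carrier, a ratio of 133 and 171. Slc25a1, the citrate carrier, was at 0.80 and 0.47 TPM from 19 and 20 counts. Slc25a21, the oxodicarboxylate carrier, had 0 and 5 counts. Of the glutamate carriers, Slc25a22 measured 5.87 and 6.08 TPM and Slc25a18 had only 2 and 4 counts, so their ratio of 147 and 86.9 is loosely fixed. The shuttle's enzymes were all detected, with Mdh2 at 430 and 402 TPM and Mdh1 at 299 and 284 TPM, the mitochondrial and cytosolic malate dehydrogenases.

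The uncoupling proteins and their close relatives took 4.47% of the family's TPM in replicate 1 and 1.90% in replicate 2. Ucp3 (chr7:100472990-100486432, plus strand) measured 104.8 TPM in replicate 1 and 36.6 TPM in replicate 2 (70.7 ± 48.2, n = 2), from 6676 and 2596 counts, and ranked 524 and 1381 among nuclear protein-coding genes. Ucp2, a broadly expressed relative whose gene lies 6904 bp away on the same chromosome, measured 4.67 and 2.61 TPM from 176 and 121 counts. Ucp3 was 22.4 times Ucp2 in replicate 1 and 14.0 times in replicate 2, and 17.8 and 10.0 times by the second quantification. Ucp1 had no count in either library, and Ucp3 was at least 1506-fold and 604-fold higher than the level that 3 counts of Ucp1 would give in each library. The list of 5 brown adipocyte markers includes Ucp1 itself, so it is not a separate check on that value. It summed to 1.57 and 1.87 TPM, with 0 of 5 detected and Ucp1 and Elovl3 at 0. The others had reads but stayed below 1 TPM: Ebf2 had 92 and 119 counts, Zic1 36 and 42, and Cidea 6 and 6. Slc25a30 and Slc25a14 measured 3.64 and 2.43 TPM, and 0.90 and 0.78 TPM, in that order. Slc25a27 was at 2.67 and 1.93 TPM.

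The cofactor and nucleotide carriers were the broadest class, with 9 of 9 detected and 4.20% and 4.58% of the family's TPM. Slc25a51, which carries NAD into mitochondria, led them at 42.5 and 41.9 TPM. Slc25a42, which carries coenzyme A, measured 13.5 and 11.3 TPM, and its relative Slc25a16 7.51 and 7.46 TPM. The pyrimidine nucleotide carriers Slc25a36 and Slc25a33 measured 10.6 and 8.28 TPM, and 4.98 and 5.43 TPM, a ratio of 2.12 in replicate 1 and 1.52 in replicate 2. Slc25a26 (S-adenosylmethionine), Slc25a32 (folate and flavin nucleotides) and Slc25a17 (a peroxisomal carrier) lay between 2.03 and 6.06 TPM.

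The amino acid and acylcarnitine carriers ranged from 30.8 TPM to no counts, with 4 of 7 detected for acylcarnitine, ornithine and basic amino acids and 4 of 4 for the others. Slc25a20, the carnitine-acylcarnitine carrier of fatty acid oxidation, measured 29.9 and 26.5 TPM. Slc25a39, which is needed for mitochondrial glutathione uptake, measured 30.8 and 28.3 TPM, and its relative Slc25a40 1.39 and 1.30 TPM, a ratio of 22.1 and 21.8, and of 30.9 and 25.3 by the second quantification, resting on 84 and 101 counts of Slc25a40. Slc25a44, a carrier of branched-chain amino acids, was at 9.56 and 8.75 TPM, and Slc25a38, a glycine carrier, at 5.28 and 3.60 TPM. Slc25a15, the ornithine carrier, measured 4.59 and 4.35 TPM, and its relative Slc25a2 had 7 and 0 counts. The basic amino acid carriers gave 4.32 and 4.35 TPM for Slc25a29 and 0.58 and 0.33 TPM for Slc25a45, the latter from 14 and 21 counts. Their ratio was 7.45 and 13.2 by TPM but 16.1 and 12.2 by count, so it is loosely fixed. Slc25a47, known from liver and 162 bp from Slc25a29, measured 2.37 and 3.10 TPM as a gene, most of it assigned to processed transcripts. Its protein-coding transcript Slc25a47-201 measured only 0.87 and 0.54 TPM, while the processed transcript Slc25a47-205 measured 0.89 and 1.83 TPM. Slc25a48 had no counts.

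The mitoferrins Slc25a28 and Slc25a37, which import iron, gave opposite orders by count and by TPM. Slc25a28 had 425 and 464 counts and Slc25a37 had 781 and 700, a count ratio of 0.544 and 0.663. Per length, Slc25a28 measured 11.6 and 10.9 TPM and Slc25a37 7.01 and 5.87 TPM, a TPM ratio of 1.65 and 1.86. The length divided out depends on the transcripts assigned, and 37.0% and 25.3% of Slc25a28 was given to a processed transcript of 1046 bases. Of Slc25a37, 21.8% and 20.4% was given to a retained-intron transcript of 5927 bases. A further 24.8% and 36.9% went to one annotated as a target of nonsense-mediated decay. Slc25a46, a carrier relative of the outer membrane, measured 12.2 and 12.4 TPM. Slc25a34 and Slc25a35, whose substrates are not well fixed, measured 4.60 and 5.77 TPM, and 1.44 and 1.77 TPM. Slc25a53 was at 1.13 and 0.40 TPM from 40 and 31 counts, Slc25a43 had 3 and 2 counts, and Slc25a54 had none.

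**Figure D2:**
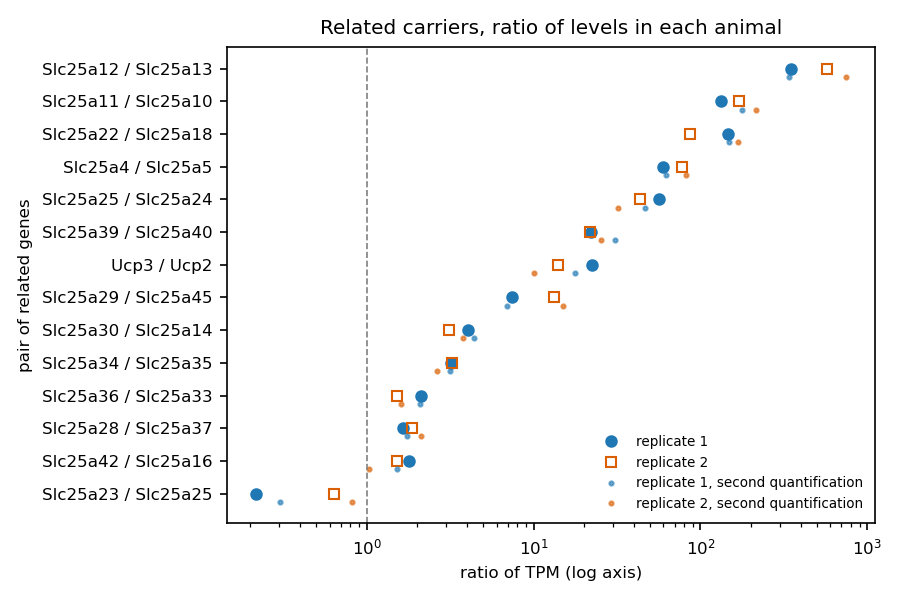
Ratio of TPM between related carriers in each animal on a log axis, with large symbols for the first quantification and small dots below them for the second; 14 of the 15 pairs are drawn, since Slc25a2 had no count in replicate 2. Every ratio drawn is above 1 in both animals by both quantifications except Slc25a23 over Slc25a25, which is below 1 throughout.

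Transcript tables gave the exons behind these levels for the 15 carriers with a mean of at least 10 TPM. The same transcript was the most abundant in both animals for 13 of them, and it held at least 50% of the gene's TPM in both animals for 12. By the second quantification these counts were 14 and 11, and for 12 genes the same transcript led in both animals by both quantifications. Slc25a3-206, with the first of the alternative exons printed above, took 94.4% and 92.7% of Slc25a3, and Slc25a3-201, with the other, 4.73% and 6.58%. The second quantification gave 84.5% and 83.4% for Slc25a3-206 and 9.67% and 9.89% for Slc25a3-201. Slc25a3 is known to have a muscle form and a widely expressed form that differ by such exons.

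Slc25a12 was assigned mostly to a transcript annotated as a target of nonsense-mediated decay, the pathway that degrades messages with an early stop. Slc25a12-207 took 72.1% and 72.3% of the gene's TPM, and 57.7% and 61.3% by the second quantification. The only protein-coding transcript in the table, Slc25a12-206, took 14.6% and 15.4%, and 15.6% and 17.4% by the second. Slc25a12-207 lacks the coding exon 4 of 116 bases at chr2:71333605-71333720 and runs into a stop in the next exon, whose bases up to that stop (capitals) lie at chr2:71324061-71324115, minus strand. The transcripts also differ at their ends: the last exon has 664 bases in Slc25a12-207 and 4291 in Slc25a12-206, whose annotated 3′ end lies 3627 bases further on. Which of these differences the assignment rests on was not tested.
Exon skipped in Slc25a12-207: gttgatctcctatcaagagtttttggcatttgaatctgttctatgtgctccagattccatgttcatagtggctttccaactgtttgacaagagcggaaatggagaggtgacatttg
Next exon up to the stop: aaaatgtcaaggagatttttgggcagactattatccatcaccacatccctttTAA

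Other genes were split in ways that the quantifications did not share. Slc25a42-201 took 86.9% and 83.8% of Slc25a42 by the first, while Slc25a42-202 took 96.4% and 93.7% by the second. The retained-intron transcript Slc25a4-202 took 19.5% and 13.8% of Slc25a4 by the first and 5.99% and 1.66% by the second. Slc25a11-201 held 95.9% and 95.8% by the first and 65.7% and 64.1% by the second. The most abundant transcript of Slc25a51 was not the same in the 2 animals by the first quantification. Gene totals moved less, with the second quantification at 0.645 to 1.25 times the first over the 34 carriers with a mean of at least 1 TPM and a median of 0.859.

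**Figure D3:**
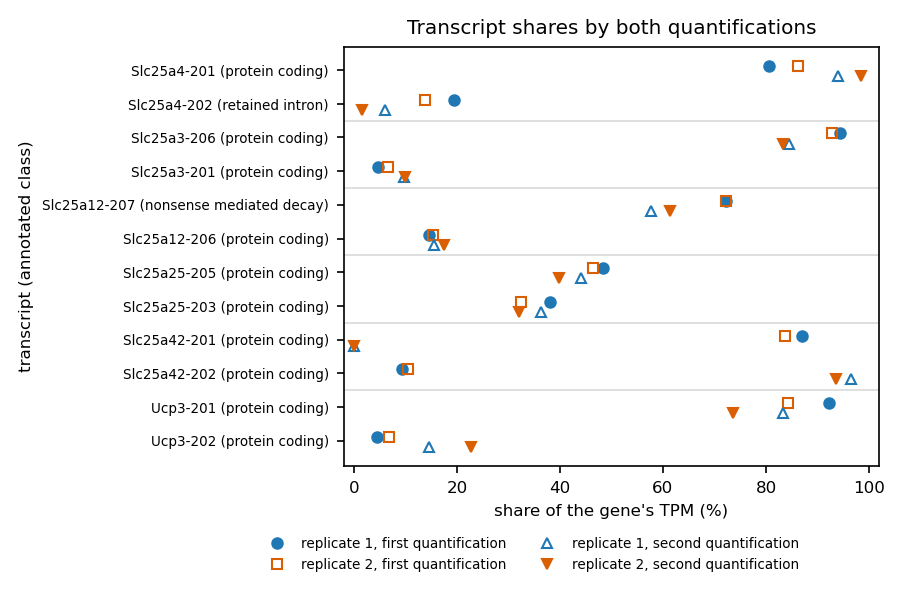
Share of the gene's TPM held by 2 transcripts of each of 6 carriers, in percent, with circles and squares for the animals by the first quantification and triangles by the second; the annotated class of each transcript is in brackets. Slc25a3-206 and Slc25a12-207 lead by both quantifications, whereas the leading transcript of Slc25a42 changes between them.

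Between the animals most carriers differed little, and Ucp3 and Slc25a25 stood apart. Of the 35 carriers with a mean of at least 50 counts, 2 (5.71%) passed a 2-fold difference, against 1.38% of all 11125 genes compared. Both were higher in replicate 1, a direction in which 0.701% of all genes passed 2-fold. These ratios come from counts scaled by TMM, a library scaling that assumes most genes do not differ, with log2 ratios written as replicate 2 over replicate 1. Ucp3 had 6676 counts in replicate 1 and 2596 in replicate 2, a 2.60-fold difference (log2 ratio -1.38). Slc25a25 had 3802 and 1572 counts, a 2.44-fold difference (log2 ratio -1.29). With 1 group of 2 animals these are differences between individuals with no replicate check.

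The difference in Slc25a25 was seen in both of its main transcripts, which begin in different first exons. Slc25a25-205 measured 24.1 and 9.29 TPM and took 48.3% and 46.3% of the gene. Slc25a25-203 measured 19.0 and 6.49 TPM and took 38.1% and 32.4%. Their coding starts are at chr2:32451235-32451324 and chr2:32423863-32423952, minus strand, and their first 90 coding bases are shown with the start codon in capitals. The cAMP response element letters were found only before the second of these starts among the windows searched for the gene. For Ucp3, transcript Ucp3-201 measured 96.6 and 30.9 TPM.
Slc25a25-205 start: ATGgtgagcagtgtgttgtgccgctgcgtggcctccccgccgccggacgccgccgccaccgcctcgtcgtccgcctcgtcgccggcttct
Slc25a25-203 start: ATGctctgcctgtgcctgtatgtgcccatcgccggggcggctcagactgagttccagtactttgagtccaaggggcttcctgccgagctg

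The next largest differences were below 2-fold. Slc25a24 (82 and 49 counts) had a log2 ratio of -0.74, Ucp2 of -0.55 and Slc25a30 of -0.54, all higher in replicate 1. Slc25a34 (332 and 477 counts) had the largest ratio in the other direction, 0.50. The abundant carriers were close to 0, with Slc25a4 at 0.08, Slc25a3 at 0.12, Slc25a12 at 0.11 and Slc25a11 at 0.08. The median of the 35 carriers was 0.08, against 0.00 over all genes, and 29 of the 35 (82.9%) lay within 0.5 of 0, against 92.0% of all genes. Higher values were found in replicate 1 for 13 carriers and in replicate 2 for 22, while 49.1% of all genes compared were higher in replicate 1. Scaling by the ERCC spike-ins moved the median of all genes to -0.12, and the split became 24 and 11, so the direction of the small ratios depends on the scaling. Ucp3 was then at -1.51 and Slc25a25 at -1.42.

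**Figure D4:**
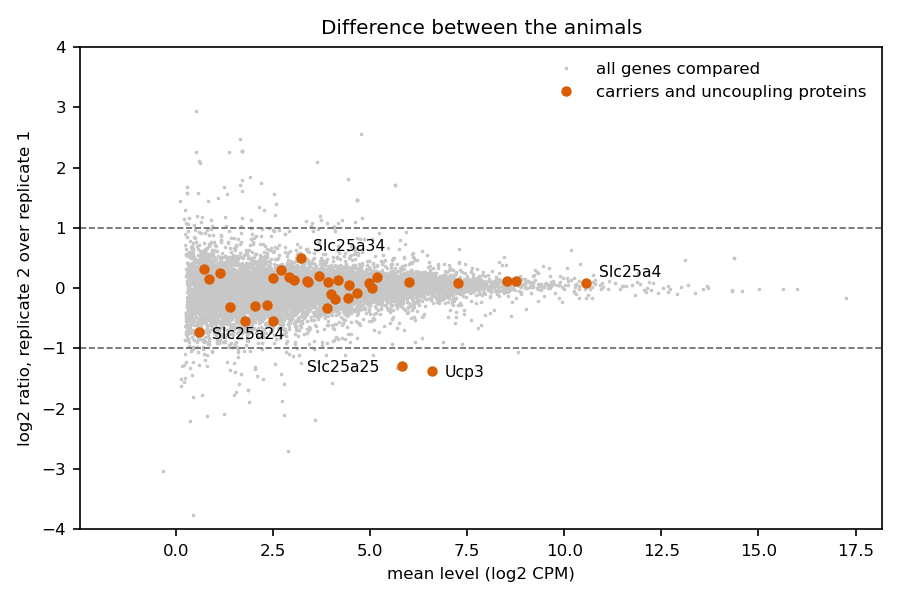
Log2 ratio of replicate 2 over replicate 1 against mean level in log2 CPM, with 35 carriers as large dots over all genes compared as small grey dots; dashed lines mark 2-fold, and 10 genes lie beyond the axis. Ucp3 and Slc25a25 lie below the lower line while the other 33 carriers lie between the lines.

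Marker genes of other cell types differed between the animals to unequal degrees, and their part in the carriers' differences was not tested. Their directions read against the 49.1% of all genes that were higher in replicate 1. The Schwann cell markers summed to 54.5 TPM in replicate 1 and 12.1 TPM in replicate 2, and 5 of 5 were past 2-fold higher in replicate 1. The fibroblast markers summed to 132 and 94.0 TPM and were higher in replicate 1 for 5 of 5, with 0 past 2-fold. The slow fibre markers summed to 1839 and 1930 TPM and were higher in replicate 2 for 7 of 7. Their median log2 ratio was 0.29, with 0 past 2-fold. The adipocyte markers summed to 10.5 and 9.75 TPM, with 1 of 5 detected, and the 2 tested went 1 each way. Endothelial markers were higher in replicate 1 for 4 of 5, and erythroid markers for 2 of 2 tested. Macrophage markers were higher in replicate 2 for 3 of 3 tested. In each of these lists 0 were past 2-fold. Small ratios depended on the scaling here too. By ERCC scaling, Csf1r and Lyz2 (macrophage), Egfl7 (endothelial) and Cfd (adipocyte) turned from higher in replicate 2 to higher in replicate 1. The slow fibre and fibroblast markers kept their directions.

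Genes that work with the carriers were compared in the same way, and none of those tested passed 2-fold, against 1.38% of all genes. Their difference from the carriers was not tested. The nearest to 2-fold was Sfxn2, of the sideroflexin family, with 55 and 112 counts (log2 ratio 0.98), followed by Cpt1a, the liver-type carnitine palmitoyltransferase, at -0.54 and Agk, a kinase that is part of the import machinery, at -0.43. None of the 13 genes of carrier import tested, which thread carriers into the inner membrane, passed 2-fold, with Timm8b at 94.9 and 90.7 TPM and Timm13 at 62.6 and 51.3 TPM. None of 10 tested genes for other routes of metabolite passage did, with the outer membrane channels Vdac1 at 659 and 592 TPM and Vdac3 at 237 and 223 TPM. None of the 4 genes of the shuttle enzymes passed 2-fold. None of the 4 carnitine cycle genes did, with Crat, carnitine acetyltransferase, at 176 and 160 TPM and Cpt1b, the muscle carnitine palmitoyltransferase, at 108 and 94.9 TPM. None of 5 tested partners of ADP/ATP exchange did, with Ckm, muscle creatine kinase, at 21091 and 18563 TPM and Atp5b, a subunit of ATP synthase, at 1737 and 1618 TPM. The median log2 ratios of these groups lay between 0.02 and 0.10, around the carriers' 0.08.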

How the data were processed

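Per the labels, 300 ng of RNA was depleted of ribosomal RNA, spiked with ERCC RNA and made into strand-specific libraries. The authors deposited, per library, a gene and a transcript table in the layout of RSEM and a transcript table in the layout of kallisto, called the second quantification here. The accompanying descriptions name genome mm10 and GENCODE M21; which programs ran is not given in the sources used here. Expected counts, as deposited, estimate reads and are not normalized. The deposited TPM values are scaled to a fixed total per library. Percent values, as deposited, divide a gene among its transcripts. The deposited posterior mean TPM was treated as a score and used as an alternative. The posterior SD of a carrier's count was at most 0.377% of the count.

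Expected counts were rounded and scaled by TMM in edgeR 4.0.16 (R 4.3.3), and log2 CPM ratios were taken with a prior count of 2 for genes with a mean of at least 50 counts; the steps were tested on simulated data. Called means past 2-fold, and detected means 1 TPM in both libraries. The carriers are named, except 1 that is not reported here, with values in full for those with a mean of at least 10 TPM, the uncoupling proteins, those past 2-fold and both members of each pair, and the 2 highest genes of each pathway list. The carriers, pairs and lists were chosen with earlier results of these data known. Alternatives were DESeq2 1.42.0 size factors, ERCC scaling, either animal alone, the second quantification, posterior means, other count minimums, prior counts and TPM thresholds, and TPM rescaled to nuclear protein-coding genes. Promoters are from RefSeq GRCm38.p6. Tables used Python 3.11.15 and pandas 2.3.3. The allele of origin of reads was not analysed here.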

Additional observations from a re-analysis of the deposited data

How the results depend on the processing

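No paired analysis was possible because all samples belong to 1 group. The carriers' sum of 2472 TPM was 2113 TPM by the second quantification and 5400 TPM when TPM was rescaled over nuclear protein-coding genes; the rescaling raised the number of carriers at 10 TPM or more from 15 to 24, by its own construction. At a threshold of 5 TPM, 22 carriers were detected in place of 34. Without a count minimum, 4 carriers in place of 2 were past 2-fold, the added ones being Slc25a2 (7 and 0 counts) and Slc25a21 (0 and 5 counts). Scaling by ERCC spike-ins turned the carriers' median log2 ratio from 0.084 to -0.044. Leaving out either animal gave a sum of 2333 to 2610 TPM, 34 to 36 carriers detected, 15 to 16 at 10 TPM or more, a Slc25a4 to Slc25a5 ratio of 59.7 to 77.9 and 12 to 13 genes with a transcript at 50% or more; no ratio between animals can be formed from 1 library. Ucp3 and Slc25a25 stayed past 2-fold in all 6 alternatives run for them, but not all of these could have changed the result. The count minimums leave a gene's ratio as it is, and the prior count hardly moves genes with this many counts. The log2 ratio of Ucp3 was -1.36 by DESeq2 size factors, -1.51 by ERCC scaling and -1.39 by the second quantification. For Slc25a25 the values were -1.27, -1.42 and -1.27, in that order. For 13 other pairs, 0 of 52 alternatives crossed a ratio of 1, but many of these ratios were too far from 1 for that to be likely. Their sizes did move. By posterior means, Slc25a12 over Slc25a13 went from 462 to 292 and Slc25a29 over Slc25a45 from 10.3 to 5.91. Slc25a42 over Slc25a16 came close to 1 in replicate 2 by the second quantification, at 1.03. Counts of reads limit every ratio to Slc25a13, Slc25a18, Slc25a10 and Slc25a45.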

Other observations

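A pair of gene lists was drawn up after the ratios of Ucp3 and Slc25a25 had been seen, so their values are a description and support nothing. Of the fatty acid genes, Pdk4, the kinase that restrains pyruvate dehydrogenase, had 27564 counts in replicate 1 and 13339 in replicate 2, a 2.09-fold difference. It was the only one of 9 tested genes of that list past 2-fold, and the list's median log2 ratio was 0.10. Angptl4, an inhibitor of lipoprotein lipase, had 38 and 7 counts, too few to enter the comparison. Lpl, lipoprotein lipase, had 14900 and 16095 counts.

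Of the genes known to respond to cAMP or activity, 0 of 7 tested were past 2-fold, and the median log2 ratio was -0.30. Of the 7, 6 were higher in replicate 1 and 1 in replicate 2. Sik1, a kinase induced by cAMP, had 950 and 523 counts (log2 ratio -0.87). By ERCC scaling its log2 ratio was -1.003, just past 2-fold. Nr4a1, the highest of the list by mean TPM, had 3621 and 3574 counts (-0.03). Ppargc1a, a coactivator of mitochondrial genes, had 2630 and 2162 counts (-0.30), and Per1, a clock gene, had 1870 and 2304 (0.28).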
